A study of Mus musculus with 70 samples.

Results

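The heat shock and unfolded protein response genes are a set of 47 genes, listed by symbol, that encode chaperones, their co-chaperones and the sensors and outputs that control them. All 47 were found among the 53465 genes of the count table. They were divided by compartment into 19 genes of cytosolic heat shock, 3 mitochondrial chaperones, 15 ER chaperones or folding enzymes and 10 genes of UPR signalling, stress output and ER-associated degradation (ERAD). Heat shock proteins are chaperones that bind unfolded proteins in the cytosol, and many of their genes are induced by the transcription factor HSF1 when proteins misfold. In the ER, unfolded proteins activate IRE1 (encoded by Ern1), PERK and ATF6, which raise ER chaperones through XBP1 and ATF6 and slow translation while favouring ATF4. Lymphocytes that secrete much protein, plasma cells above all, hold these ER genes at high levels, and cytosolic heat shock genes are known to be induced by warming and enzymatic digestion of tissue.

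RNA was sequenced from Tregs sorted out of 5 male Foxp3-YFP-cre mice aged 16.6 to 18.6 weeks, on a B6.129(Cg) background and with no treatment. ST2+ CD44hi and ST2- CD44hi Tregs were taken from blood, spleen, lungs, visceral adipose tissue (VAT), colon and skin, and ST2- CD44lo CD62L+ Tregs from spleen and lungs. ST2 is the IL-33 receptor, CD44hi marks effector Tregs, and CD44lo CD62L+ cells are resting central Tregs. All 14 groups carried the allele Foxp3tm4(YFP/icre)Ayr, a YFP-Cre fusion knocked into Foxp3, which marked the cells for the sort, and in every group the sorted cells were live, CD45.2+, CD4+ and YFP+ and lacked CD8 and CD11b. Each library came from 55 to 220 cells, with 220 in 60 of the 67 libraries kept. Tissue and cell preparation went together. Blood and spleen were not digested with enzymes, and lungs and VAT were digested with collagenase at body temperature. Colon was incubated at body temperature with EDTA and DTT and then with EDTA before collagenase, so it was warmed for longer than lungs and VAT. Skin had the longest digestion at the highest enzyme concentration. Spleen and lung cells were also enriched for CD4 on magnetic beads. In every comparison between tissues the tissue and its preparation therefore cannot be told apart.

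Of 70 libraries, 67 had over 1000000 counts and were used, with 1304560 to 2759926 counts each (median 2039002). The other 3 were ST2+ libraries of blood (mouse 1) and colon (mice 2 and 5), so blood ST2+ had 4 libraries, colon ST2+ had 3 and the other groups had 5. Foxp3, Cd3e, Cd4 and Trac were detected in all 67, with Foxp3 at 109 to 428 CPM (counts per 1000000). All 47 members passed the filter on low counts. Levels below are CPM scaled by the TMM method, and in bulk samples a lower share of cells that make a transcript and less of it per cell cannot be told apart. Differentially expressed genes (DEGs) had a fold change (FC) of at least 1.5 and an adjusted p of at most 0.05 in edgeR's quasi-likelihood test, adjusted over 13191 genes by the method of Benjamini and Hochberg.

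Per kilobase of exon, levels in spleen ST2- CD44hi Tregs ran from 0.236 CPM per kb for Ern1, the UPR sensor, to 255 for Hsp90ab1, the constitutive cytosolic HSP90. The most abundant after Hsp90ab1 were Pdia3, an ER disulphide isomerase (185 CPM per kb), Hspa5, the ER HSP70 known as BiP (149), and the co-chaperones Bag1 (146) and Stip1 (119). Hspa1a (0.642 CPM per kb) and Hspa1b (3.41), the inducible HSP70 genes, stood near the lower end. In skin ST2- CD44hi Tregs these 2 genes reached 105 and 167 CPM per kb, above Hspa8, the constitutive HSP70, at 66.2. The levels of some members are uncertain, because many of the 58-base words in their exons (the read length) also occur in other genes. The shared part was 64.8% for Hspa1a and 60.2% for Hspa1b (mostly with each other), 48.5% for Hspb1, 45.9% for Hsp90aa1, 38.2% for Hspd1, 37.4% for Hspa8, 20.3% for Dnajb6, 19.9% for Dnaja1 and 19.6% for Hspe1. Hsph1, Dnajb1, Dnajb4 and Hspa4 shared none.

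The promoters show which control sequences the members carry. RefSeq promoters of GRCm38.p6 (250 bases before to 50 after each start) were at hand for 37 of the 47, not for Atf6, Hsf1, Hsp90aa1, Hsp90ab1, Hspa13, Hspa8, Hspa9, Hyou1, Manf or St13. The heat shock element, the HSF1 motif, was searched on both strands as GAA, TTC and GAA with 2 bases of any kind between each and stood in 7 of the 44 promoters of these genes, those of 5 genes, against 0.603% of all 32851 promoters. The ER stress element, bound by ATF6 with NF-Y, was searched as CCAAT, 9 bases of any kind and CCACG and stood in 7 of the 44, those of 7 genes, against 0.119% of all promoters. The UPR element TGACGTGG and the amino acid response motif TGATGCAAT were in 0 of the 44 (0.676% and 0.192% of all). A match is a string of letters, not a bound site. The windows below are read 5′ to 3′ on the strand of the gene, the capitals mark the matches, and positions are counted from the transcription start. Those with a heat shock element are shown because 3 of these 5 genes were among the DEGs of skin. In skin 14 of all 22 heat shock members and 1491 of all 13191 genes rose over spleen in both populations.
Hsph1 (chr5:149636280-149636308, minus strand, match at 16 to 28): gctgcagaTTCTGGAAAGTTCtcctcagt
Dnajb6 (chr5:29735844-29735872, plus strand, match at -127 to -115): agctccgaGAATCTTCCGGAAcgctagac
Hspe1 (chr1:55088053-55088082, plus strand, match at -89 to -72): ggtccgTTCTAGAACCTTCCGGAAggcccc
Hspd1 (chr1:55088053-55088082, minus strand, match at -144 to -127): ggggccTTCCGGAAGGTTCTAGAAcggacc
Chordc1 (chr9:18292260-18292288, plus strand, match at -4 to 19): ccgGAACGTTCGGGAAAATTCCTGAAgca
Hspe1 and Hspd1 are divergent neighbours and share 1 site, read from either strand. The next windows hold the ER stress element of genes that were DEGs in colon, followed by that of Calr, which was not a DEG there.
Hspa5 (chr2:34772020-34772048, plus strand, match at -65 to -47): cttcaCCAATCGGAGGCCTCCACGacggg
Hsp90b1 (chr10:86705633-86705661, minus strand, match at -212 to -194): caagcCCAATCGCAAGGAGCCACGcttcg
Hsp90b1 (chr10:86705528-86705556, minus strand, match at -107 to -89): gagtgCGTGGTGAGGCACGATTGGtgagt
Creld2 (chr15:88819515-88819543, plus strand, match at -126 to -108): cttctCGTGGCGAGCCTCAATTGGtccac
Calr (chr8:84847070-84847098, minus strand, match at -162 to -144): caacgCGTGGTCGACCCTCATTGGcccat
Pdia6, Dnajc3 and Canx also held the ER stress element.

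Members stood apart by tissue, and the compartments did so in part in different tissues. In skin, 13 of 19 cytosolic heat shock genes rose over spleen in ST2- CD44hi Tregs and 13 in ST2+ CD44hi Tregs, where 17.3% and 14.9% of all genes tested rose. ER and UPR genes were DEGs in skin too, in 21 of 50 gene-by-population pairs (42.0%), against 29.9% over all genes. In colon, 3 and 2 of the 19 cytosolic genes rose, while 14 and 13 of the 25 ER and UPR genes did, against 8.76% and 8.55% of all genes. Plasma cell transcripts such as Jchain and Igha were above those of spleen CD44hi Tregs in every colon library, and lowest in that of mouse 3 in ST2+ Tregs. In that library Creld2 and Pdia4 lay within the spleen ST2+ range, and Xbp1 and Hspa5 lay above it. In lungs and VAT at most 10 of 47 members differed, Ppp1r15a and Dnajb9 among them in both populations, where 4.12% to 11.3% of all genes were called. In blood 2 members differed in each population, a share near the 3.57% and 4.21% of all genes. No member fell in skin or colon against spleen. The heat map of group means shows this, as does the plot of fold changes against spleen.

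**Figure D1:**
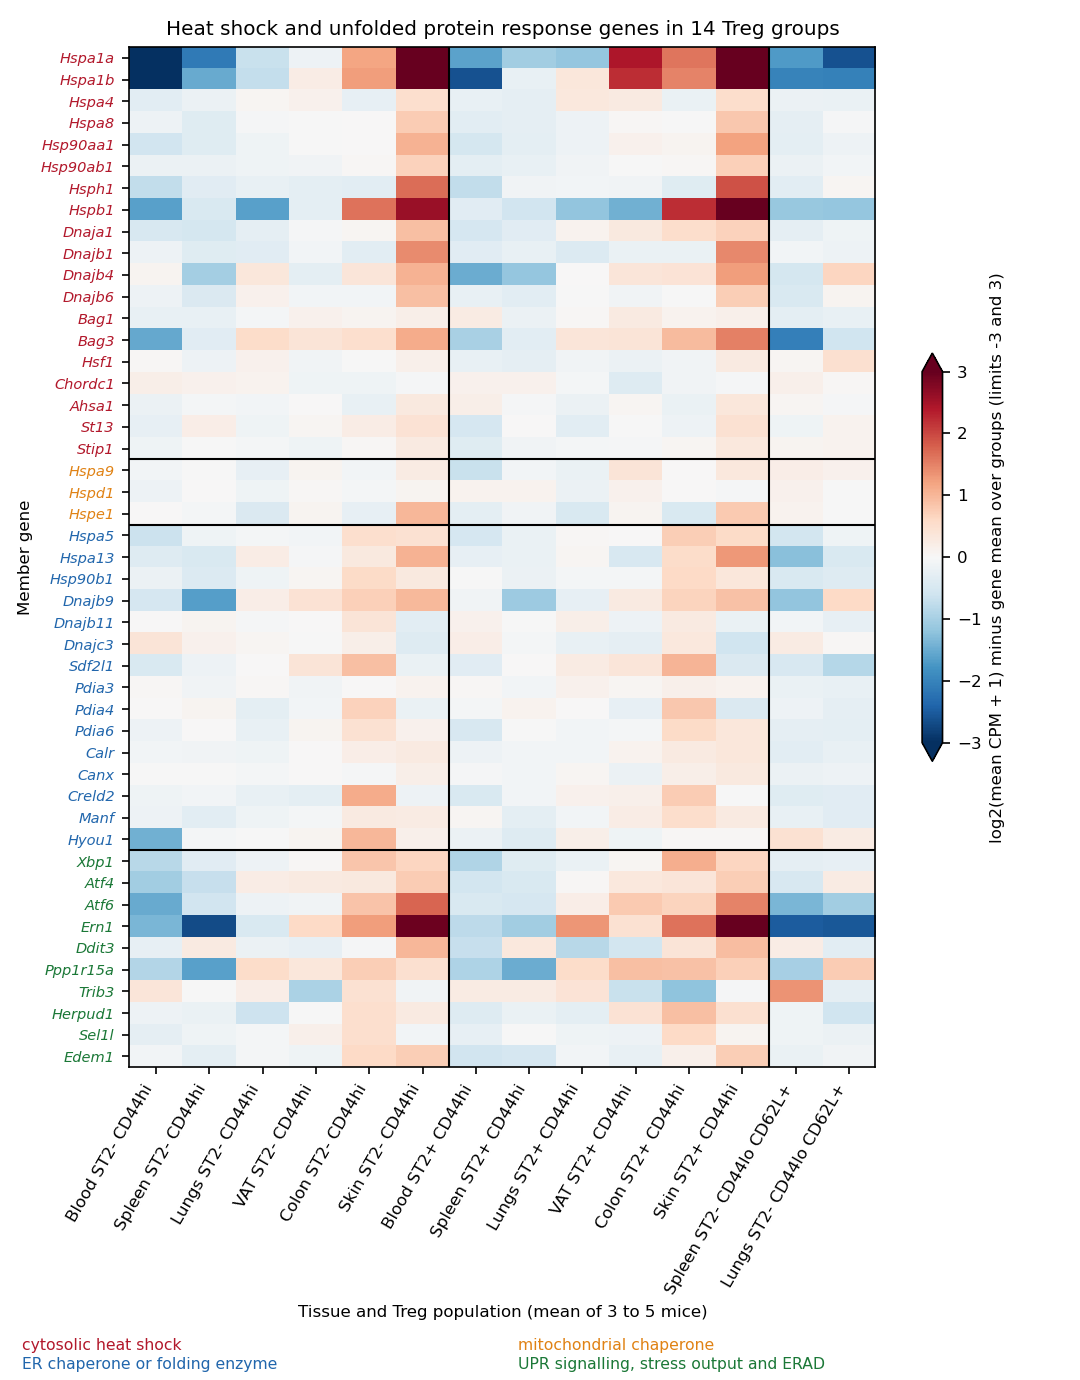
Mean level of the 47 member genes (rows, coloured by compartment) in the 14 groups (columns), as log2(mean CPM + 1) minus the gene's mean over groups, with colours limited to -3 and 3. The skin columns are red over most of the cytosolic heat shock block, while Sdf2l1, Creld2 and Pdia4 in the ER block are red in colon and not in skin.

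The class medians followed the counts. The median log2 FC of the 19 cytosolic genes in skin against spleen was 1.37 in ST2- and 1.06 in ST2+ Tregs, and 0.30 and 0.26 in colon. That of the 15 ER chaperones was 0.21 and 0.35 in skin but 0.61 and 0.69 in colon. The 10 genes of UPR signalling and output were high in both, at 1.01 and 1.11 in skin and 0.94 and 0.96 in colon. Over all 13191 genes the median log2 FC was 0.00 and 0.00 in skin and 0.04 and 0.05 in colon.

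**Figure D2:**
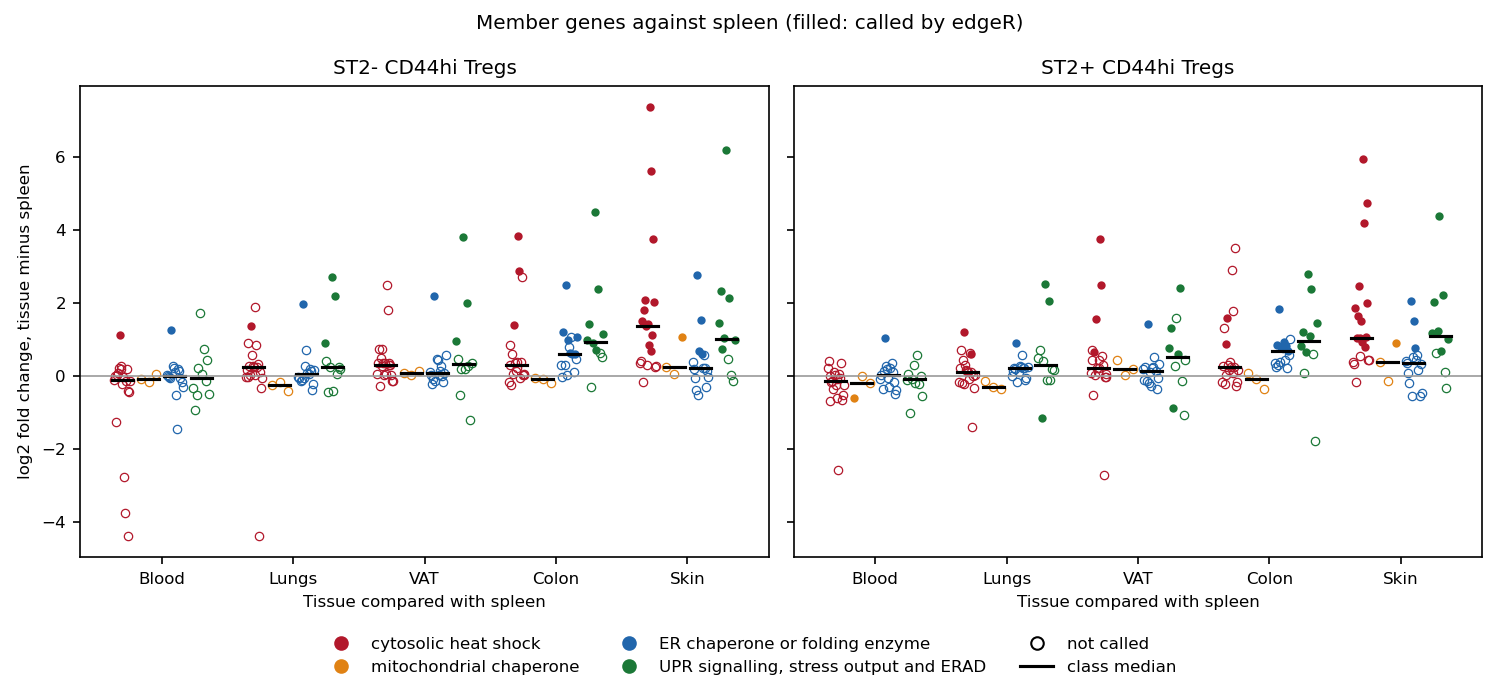
The log2 FC of each member, tissue minus spleen, by tissue (x axis) and compartment (colour), in ST2- CD44hi (left) and ST2+ CD44hi Tregs (right), with filled points for DEGs and black lines for class medians. Filled red points crowd in skin and filled blue and green points in colon. The open points below -4 are Hspb1 in blood and lungs, where it had no counts, so that their fold is set by the fit.

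Skin was compared with spleen to ask how this module differs between a digested barrier tissue and an undigested lymphoid organ. In ST2- CD44hi Tregs 25 of 47 members rose and 0 fell, where 17.3% of all genes tested rose and 13.5% fell (30.9% called). In ST2+ CD44hi Tregs 24 rose and 0 fell, against 14.9% and 14.2% of all genes (29.0% called). Of these, 23 rose in both populations, where 1491 of all 13191 genes did. Hspa1a, an inducible HSP70, had the largest fitted difference of the 19 cytosolic members in both populations. It stood at 237, 317, 328, 381 and 297 CPM in the 5 ST2- skin libraries and at 0, 5.56, 3.97, 0 and 0 CPM in the 5 of spleen. In ST2+ Tregs it stood at 277, 261, 277, 395 and 312 CPM in skin and 3.76, 1.46, 1.98, 17.1 and 1.10 CPM in spleen. Every skin library was above every spleen library, and 3 of the ST2- spleen libraries had no count. The log2 FC was 7.37 (SE 1.13) in ST2- (edgeR adjusted p = 3.74e-07) and 5.96 (SE 1.03) in ST2+ Tregs (edgeR adjusted p = 4.98e-06).

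Hspa1b, its near copy, stood at 372, 502, 442, 558 and 464 CPM in skin and 11.8, 24.4, 4.85, 6.76 and 0 CPM in spleen ST2- Tregs. The groups did not overlap there, nor in ST2+ Tregs, where skin ran from 347 to 637 CPM and spleen from 0.367 to 81.2 CPM. Hspb1, the small heat shock protein HSP27, was low everywhere and reached 27.1, 22.3, 24.9, 8.13 and 4.95 CPM in ST2- and 27.1, 18.5, 50.6, 46.2 and 14.04 CPM in ST2+ skin libraries, against at most 3.09 and 1.88 CPM in spleen. Its log2 FC was 3.76 (SE 1.21) and 4.75 (SE 1.26) (edgeR adjusted p = 0.0131 and 0.00277). Every skin library was above every spleen library for Hspb1 too, and spleen held fewer than 4 CPM of it.

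Genes that were already well expressed in spleen also rose in skin. Hsph1, an HSP110 that recharges HSP70, stood at 357, 323, 339, 540.4 and 478 CPM in skin and 119.6, 92.8, 85.5, 111 and 90.4 CPM in spleen ST2- Tregs, with a log2 FC of 2.03 (SE 0.35) and an edgeR adjusted p of 4.00e-06. In ST2+ Tregs it stood at 583, 389, 398, 705 and 324 and 125, 109.7, 89.1, 136 and 135 CPM (log2 FC 2.01, SE 0.35, edgeR adjusted p = 4.67e-06). The skin libraries were the highest in both, with no overlap. Dnajb1, the HSP40 that delivers clients to HSP70, stood at 567, 558, 702, 648 and 531 CPM in skin and 187, 200.2, 139, 214 and 123 CPM in spleen ST2- Tregs. In ST2+ Tregs the values were 556, 555, 657, 710.2 and 530.1 and 181, 227, 213, 223 and 116 CPM. Its log2 FC was 1.80 (SE 0.22) and 1.65 (SE 0.22), with edgeR adjusted p = 8.25e-10 and 8.80e-09, and again no library of one tissue reached the range of the other.

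**Figure D3:**
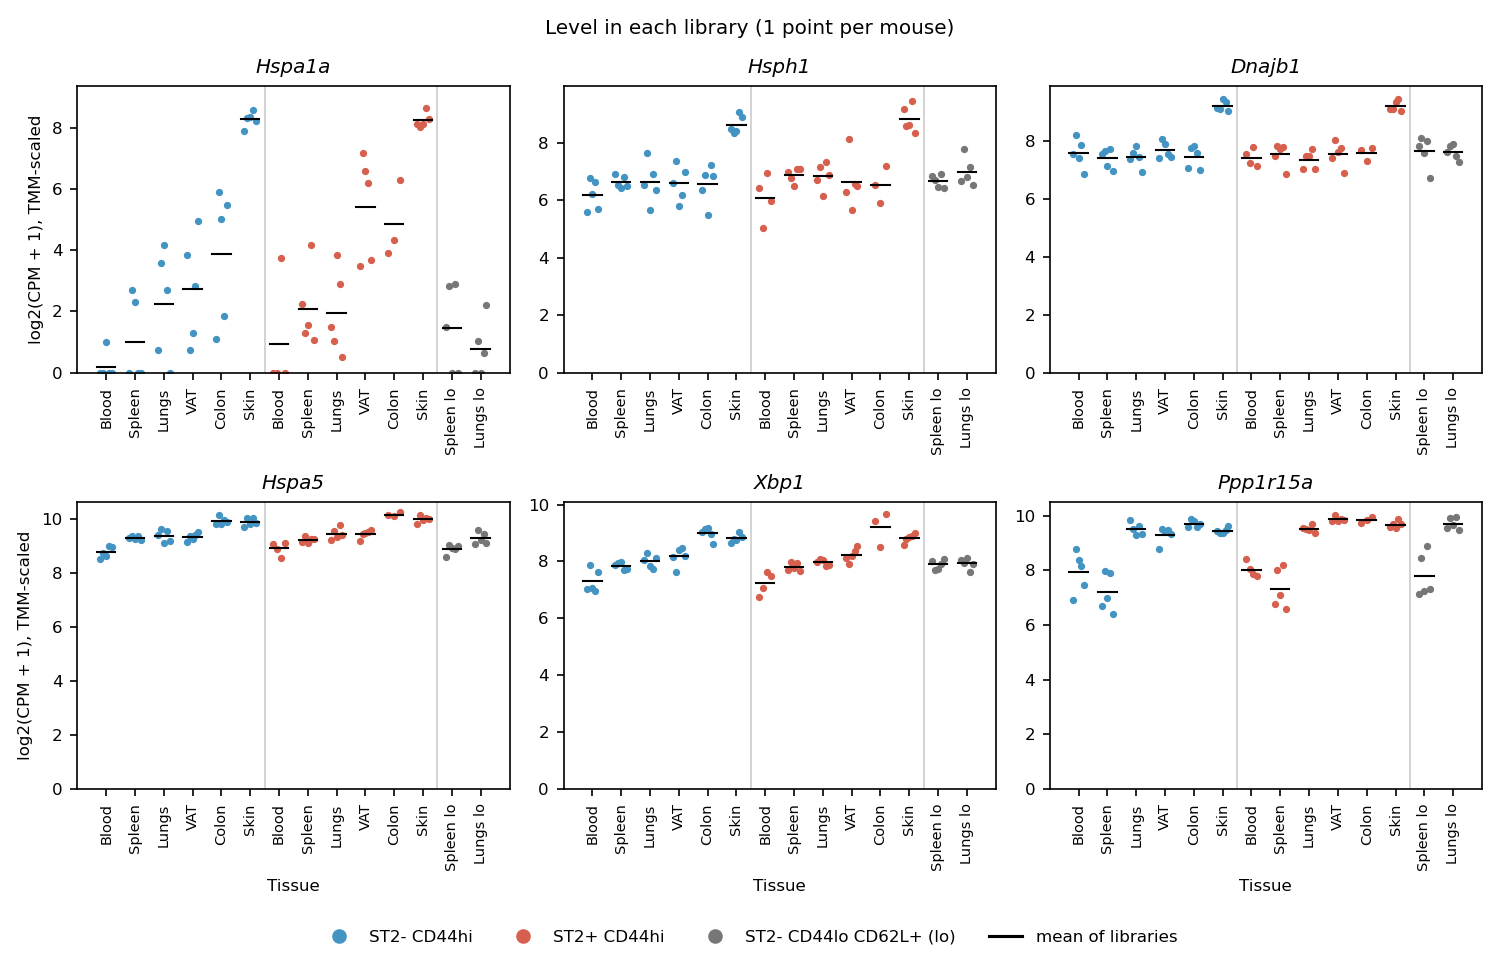
Level of 6 members in every library, as log2(CPM + 1), by tissue and population (blue ST2- CD44hi, red ST2+ CD44hi, grey CD44lo CD62L+, marked lo), with 1 point per mouse and a black line at the mean. Hspa1a, Hsph1 and Dnajb1 stand highest in skin, Hspa5 and Xbp1 are high in colon and skin, and Ppp1r15a is high in all 4 digested tissues including the CD44lo CD62L+ Tregs of lungs.

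The HSP90 genes rose too. Hsp90ab1 had 1391 ± 221 (SD, n = 5) CPM in skin and 766 ± 64.8 (SD, n = 5) CPM in spleen ST2- Tregs (log2 FC 0.86, SE 0.13, edgeR adjusted p = 2.46e-07). Hsp90aa1, its stress-inducible partner, had 219 ± 46.5 (SD, n = 5) and 81.6 ± 16.1 (SD, n = 5) CPM (log2 FC 1.42, SE 0.18, edgeR adjusted p = 5.90e-09). Hspa8, which folds newly made proteins, had 285 ± 37.0 (SD, n = 5) and 131 ± 22.2 (SD, n = 5) CPM (log2 FC 1.12, SE 0.15, edgeR adjusted p = 8.54e-09). In ST2+ Tregs the same genes had log2 FCs of 0.94, 1.51 and 1.07 and were DEGs too. Dnaja1, Dnajb4, Dnajb6, Hspa4 and Bag3, the HSP70 nucleotide exchange factor of stressed cells, made up the rest of the 13 cytosolic genes that rose in both populations, with log2 FCs of 0.68 to 2.08 in ST2- Tregs. For Bag3 in ST2- Tregs (log2 FC 1.496, edgeR adjusted p = 0.0151) the call was lost without mouse 4 or mouse 5.

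The other 6 cytosolic members were not DEGs in skin. Hsf1, which encodes the regulator itself, had 195 ± 30.6 (SD, n = 5) CPM in skin and 159 ± 22.1 (SD, n = 5) CPM in spleen ST2- Tregs (log2 FC 0.29, SE 0.20, edgeR adjusted p = 0.275), and in ST2+ Tregs it passed the p but not the 1.5-fold limit (log2 FC 0.54, SE 0.20, edgeR adjusted p = 0.0373). Chordc1 had log2 FCs of -0.17 and -0.17, and Bag1, Ahsa1, St13 and Stip1 had 0.23 to 0.40 in ST2- Tregs. Of the mitochondrial chaperones Hspe1, the HSP10 lid of the HSP60 chamber, rose in skin with 71.2, 72.2, 73.9, 81.3 and 89.8 CPM against 36.7, 46.2, 31.3, 35.9 and 33.1 CPM in spleen (log2 FC 1.08, SE 0.23, edgeR adjusted p = 0.000162). Hspd1, HSP60 itself, whose gene lies beside Hspe1 and shares its promoter site, had 92.2 and 88.3 CPM (log2 FC 0.06, SE 0.20, edgeR adjusted p = 0.835). Hspa9 was not a DEG in skin either (log2 FC 0.26 and 0.39). Of the 5 genes with a heat shock element, Hsph1, Dnajb6 and Hspe1 rose in skin in both populations, as 14 of all 22 heat shock members did, and Hspd1 and Chordc1 did not pass the test.

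Skin was next set against lungs, VAT and colon, which were digested too, to ask whether skin differed from other digested tissues. Heat shock members were DEGs in 67 of 132 gene-by-comparison pairs (50.8%), against 18.5% over all genes tested, and all 67 were higher in skin. In ST2- Tregs 11, 12 and 11 of 22 rose over lungs, VAT and colon, where 10.7%, 8.75% and 6.85% of all genes rose. In ST2+ Tregs 13, 10 and 10 rose, against 8.57%, 11.2% and 6.94% of all genes. In either direction 20.1%, 18.1% and 15.6% of all genes were called in ST2- and 18.0%, 22.1% and 17.1% in ST2+ Tregs. Dnajb1, Dnajb6, Hsp90aa1, Hsp90ab1, Hspa1a, Hspa8, Hspe1 and Hsph1 were higher in skin in all 6 comparisons, as were 272 of all genes (2.06%). Dnajb1 had 166, 192, 226, 174 and 122 CPM in lungs, 172, 269, 239.8, 189.6 and 177 CPM in VAT and 133, 215, 227, 194 and 128 CPM in colon ST2- Tregs. The lowest skin library, at 531 CPM, was above all of these. Hsph1 ranged from 50.3 to 201 CPM in lungs, 54.7 to 165 CPM in VAT and 44.3 to 151 CPM in colon ST2- Tregs, below its lowest skin value of 323 CPM. The calls of Dnajb1, Hsp90aa1, Hspa8 and Hsph1 held in all 6 comparisons whichever mouse was left out. Those of Hsp90ab1 against colon were lost without mouse 4, that of Hspe1 against VAT in ST2+ Tregs without mouse 3, 4 or 5, that of Hspa1a against colon in ST2+ Tregs without mouse 1 or 3 and with DESeq2, that of Hspa1a against VAT in ST2- Tregs with the sorted cells as a covariate, and those of Dnajb6 in 4 of its 6 comparisons without 1 or more of the mice.

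Hspa1a and Hspa1b also rose outside skin, at lower levels. In VAT ST2+ Tregs Hspa1a stood at 10.3, 142, 95.7, 72.4 and 11.8 CPM, with a log2 FC of 3.76 (SE 0.96) against spleen (edgeR adjusted p = 0.00419), and Hspa1b stood at 61.7, 424, 140.0, 47.5 and 19.4 CPM (log2 FC 2.51, SE 0.83, edgeR adjusted p = 0.0335). The VAT libraries were spread widely, with mouse 2 the highest for both genes, and overlapped spleen. With the mouse as a replicate block the adjusted p for Hspa1b was 0.0504, and without mouse 2 both calls were lost (adjusted p = 0.0576 for Hspa1a). The Hspa1b call was also lost without mouse 3 and with DESeq2. In colon ST2- Tregs Hspa1a stood at 1.16, 58.3, 31.8, 2.61 and 43.4 CPM (log2 FC 3.85, SE 1.051, edgeR adjusted p = 0.00907), also overlapping spleen, and its adjusted p was 0.0507 without the 4 libraries highest in epithelial markers, that of colon ST2- mouse 2 among them. Hspa1b rose there as well (log2 FC 2.87, SE 0.88, edgeR adjusted p = 0.0211), a call lost without mouse 3 or 5 and without the same 4 libraries. The skin minus VAT difference of Hspa1a in ST2+ Tregs was close to the threshold (log2 FC 2.19, SE 0.84, edgeR adjusted p = 0.0461) and was lost when mouse 1, 3, 4 or 5 was left out and with DESeq2.

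Markers of other cells were measured beside these values. The 10 keratinocyte markers summed to 715, 123, 1632, 133 and 209 CPM in ST2- and 246, 404, 2353, 661 and 342 CPM in ST2+ skin libraries of mice 1 to 5, and to at most 50.4 CPM in spleen ST2- Tregs. All 10 were detected in skin, with Krt14 the most abundant in ST2- and Perp in ST2+ Tregs. Mouse 3 stood highest in both, and without these 2 libraries and the 2 colon libraries highest in epithelial markers the same number of heat shock genes, 14 of 22, rose over spleen in each population, where 28.9% and 26.7% of all genes were called in either direction. Hsph1 in mouse 3 was 339 CPM in ST2- and 398 CPM in ST2+ Tregs, below the median of its group in ST2- Tregs and at it in ST2+ Tregs. Dnajb1 in ST2- and Hspb1 in ST2+ skin Tregs were highest in mouse 3. The level of the cytosolic heat shock class in mouse 3 was 1.26 in ST2- skin Tregs, the group median, on the centred log2 CPM scale. In ST2+ skin Tregs it was 1.29, with a group median of 1.31. The 12 myeloid markers summed to 7.43 to 120.4 CPM in ST2- and 10.3 to 213 CPM in ST2+ skin libraries and the 11 stromal markers to 71.2 to 860.5 and 32.4 to 275 CPM, against 163 to 185 CPM of stromal markers, mostly Pecam1, in spleen ST2- Tregs. Skin and spleen ST2- libraries had medians of 1707138 and 2276631 counts and of 15443 and 15540 detected genes. The 7 mast cell markers, led by Kit, summed to 23.1 to 90.4 CPM in ST2- and 26.3 to 740.4 CPM in ST2+ skin libraries. The 6 ILC2 markers summed to 1692 to 2544 CPM in ST2- skin and 133 to 188 CPM in ST2- spleen libraries, almost all of it Rora, which Tregs express as well. The 8 other skin libraries still held more of the keratinocyte markers than any spleen ST2- library, and the part of these markers in the heat shock values was not tested.

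The 32 immediate early genes known to be induced while tissue is dissociated, such as Fos and Jun, were measured as a further list. Against spleen, 20 rose in lungs, 19 in VAT, 25 in colon, 23 in skin ST2- Tregs, where 3.45%, 4.58%, 8.76% and 17.3% of all genes rose. In blood ST2- Tregs 2 rose and 4 fell, against 1.90% and 1.67% of all genes. In ST2+ Tregs 19, 24, 25 and 23 rose in lungs, VAT, colon and skin, where 4.90%, 11.3%, 10.4% and 29.0% of all genes were called. In blood ST2+ Tregs 2 rose and 9 fell (4.21% of all genes called). Between ST2+ and ST2- VAT Tregs 12 were higher and 0 lower (3.13% called). The summed level of the 32 genes had a median of 4399 CPM in spleen, 4812 in blood, 9692 in lungs and 10958 CPM in VAT, and it was 14165 and 14654 CPM in colon and skin ST2- Tregs. Colon and skin overlapped in this sum, with ranges of 11223 to 15384 and 11979 to 15257 CPM. Fosl2 (log2 FC 7.62, SE 0.51, edgeR adjusted p = 4.48e-19), Cebpb (log2 FC 2.67, SE 0.22, edgeR adjusted p = 1.01e-15) and Atf3 led the rise in skin. Atf3 had a mean of 0.0845 CPM in spleen and 321 ± 245 CPM (SD, n = 5) in skin. Egr2, an early gene of T cell receptor signalling, fell in skin (log2 FC -2.55, SE 0.95, edgeR adjusted p = 0.0321). How far digestion sets the heat shock values cannot be told apart from the tissue.

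Chaperone genes outside the module were counted as well. Of 47 tested of 49 other cytosolic chaperone and proteostasis genes, 14 rose and 5 fell in skin ST2- Tregs and 10 rose and 5 fell in ST2+ Tregs, with median log2 FCs of 0.23 and 0.27. Of all genes 17.3% rose and 13.5% fell in ST2- and 14.9% rose and 14.2% fell in ST2+ Tregs. Among the rises with the smallest p in ST2- Tregs were those of Sqstm1, an autophagy receptor (log2 FC 1.12, SE 0.10, edgeR adjusted p = 1.19e-14) and Dnaja2 (log2 FC 0.59, SE 0.10, edgeR adjusted p = 1.34e-06). The falls with the smallest p were those of Dnajc7 (log2 FC -0.71, SE 0.11, edgeR adjusted p = 7.76e-07), Dnaja3, a mitochondrial HSP40 (log2 FC -1.35, SE 0.30, edgeR adjusted p = 0.000336), and Hspbp1, an inhibitor of HSP70 cycling (log2 FC -0.84, SE 0.21, edgeR adjusted p = 0.000998).

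Colon was compared with spleen in the same way, and there the ER members led. 14 of 25 ER and UPR genes rose in ST2- and 13 in ST2+ Tregs, where 8.76% and 8.55% of all genes rose (11.1% and 10.4% called). Of these 13 rose in both populations, where 720 of all 13191 genes did. Over both, 27 of 50 pairs were DEGs (54.0%), against 5 of 44 pairs of heat shock members (11.4%) and 10.7% over all genes. Without 1 mouse these became 19 to 27 and 2 to 5 pairs, and with voom more heat shock pairs were called. Hspa5 stood at 885, 1130.5, 899.5, 992 and 929 CPM in colon and 624, 661, 615, 657 and 590.4 CPM in spleen ST2- Tregs, and at 1113, 1099 and 1209 and 559.8, 659, 542, 610.2 and 612 CPM in ST2+ Tregs. Every colon library was above every spleen library. The log2 FC was 0.62 (SE 0.11) in ST2- (edgeR adjusted p = 2.80e-05) and 0.93 (SE 0.12) in ST2+ Tregs (edgeR adjusted p = 8.89e-08). In ST2- Tregs it fell under the 1.5-fold limit without mouse 2, and the call was also lost without the 4 libraries highest in epithelial markers. Hsp90b1, the ER HSP90 known as GRP94, stood at 387, 812, 575, 699 and 495 CPM in colon and 287, 289.6, 336, 304 and 280.4 CPM in spleen ST2- Tregs, again without overlap (log2 FC 0.99, SE 0.14, edgeR adjusted p = 1.76e-07).

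Xbp1, whose spliced product drives genes of the secretory pathway, stood at 522, 562, 583, 504 and 386 CPM in colon and 231, 244, 251, 206 and 211 CPM in spleen ST2- Tregs. In ST2+ Tregs it stood at 681, 365 and 803 CPM in colon (mice 1, 3 and 4) and 205, 252, 215, 243 and 200.3 CPM in spleen. Colon was higher in every library, with log2 FCs of 1.16 (SE 0.16) and 1.47 (SE 0.18) (edgeR adjusted p = 1.76e-07 and 1.46e-08). The counts do not tell spliced from unspliced Xbp1. Creld2, a secreted ER stress protein, stood at 142, 296, 160.2, 256 and 136 CPM in colon and 74.4, 88.1, 90.8, 91.3 and 85.0 CPM in spleen ST2- Tregs (log2 FC 1.21, SE 0.25, edgeR adjusted p = 0.000479). Sdf2l1, a partner of BiP, stood at 78.2, 142, 105, 148 and 81.1 and 58.1, 52.6, 54.2, 50.7 and 48.6 CPM (log2 FC 1.07, SE 0.32, edgeR adjusted p = 0.0193). Both were higher in each colon library, those of mice 2 and 4 being the highest, and the Sdf2l1 call was lost without mouse 2 or mouse 4. That call was also lost without the 4 libraries highest in epithelial markers.

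Pdia4, Manf, Herpud1, Edem1 and Atf6 rose in colon in both populations as well, as did the stress outputs Ppp1r15a, Atf4 and Dnajb9 and the sensor Ern1. Pdia4, a disulphide isomerase, had 416 ± 59.2 (SD, n = 5) CPM in colon and 272 ± 14.4 (SD, n = 5) CPM in spleen ST2- Tregs (log2 FC 0.61, SE 0.14, edgeR adjusted p = 0.0019). Manf, a secreted ER stress factor, had 130.0 ± 17.7 (SD, n = 5) and 86.0 ± 11.8 (SD, n = 5) CPM (log2 FC 0.60, SE 0.16, edgeR adjusted p = 0.00636). Herpud1, which assembles the ERAD complex, had 363 ± 112 (SD, n = 5) and 220.5 ± 18.3 (SD, n = 5) CPM (log2 FC 0.72, SE 0.16, edgeR adjusted p = 0.00121). These 3 calls were fragile in ST2- Tregs, that of Pdia4 being lost without mouse 1 or 4, that of Manf without mouse 2, 3 or 4 and that of Herpud1 without mouse 4. The Manf call was also lost without the 4 libraries highest in epithelial markers. In ST2+ Tregs, where 3 colon libraries remained, the call of Creld2 was lost without mouse 1, 2, 4 or 5, that of Atf6 without mouse 3, 4 or 5 and those of Edem1 and Ern1 without mouse 4. The lectin chaperones were not DEGs. Calr had 405 ± 53.5 (SD, n = 5) CPM in colon and 327 ± 28.5 (SD, n = 5) CPM in spleen (log2 FC 0.31, SE 0.10, edgeR adjusted p = 0.0263), under the 1.5-fold limit, and Canx had a log2 FC of -0.04 (SE 0.12). Pdia3 had 0.12, Dnajb11 0.31 and Dnajc3, an inhibitor of PERK, 0.04 on the log2 scale. Of the 7 genes with an ER stress element, Hspa5, Hsp90b1 and Creld2 rose in colon in both populations. So did 13 of all 25 ER and UPR members and 720 of all 13191 genes. Pdia6, Dnajc3, Calr and Canx were DEGs in neither, although Pdia6 passed the p in both (log2 FC 0.46 and 0.58).

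Plasma cell transcripts were also higher in colon than in spleen. The 9 plasma cell markers summed to 3556, 4014, 4672, 3829 and 4611 CPM in colon ST2- libraries, against 795 to 891 CPM in spleen, where Ighm made up nearly all of the sum and Mzb1, Sdc1 and Tnfrsf17 were at 0. In colon ST2- Tregs all 9 were detected, Igha was the most abundant (mean 1311 CPM), and Mzb1 stood at 79.4, 127, 120.5, 195 and 152 CPM and Tnfrsf17 at 26.1, 29.5, 37.1, 46.96 and 50.3 CPM. The sort required CD4 and YFP. Mouse 5 of these libraries had 386 CPM of Xbp1, 136 CPM of Creld2 and 317 CPM of Pdia4, each the lowest of the 5. Hspa5, Hsp90b1 and Sdf2l1 were lowest in mouse 1, the colon ST2- library with the lowest marker sum and the lowest Mzb1. In colon ST2+ Tregs the sum was 3720.2, 1126 and 4837 CPM in mice 1, 3 and 4. Mouse 3 was thus the lowest of these, with 3.80 CPM of Mzb1 and 1.52 CPM of Tnfrsf17. It still held 153 CPM of Jchain, 329 CPM of Igha and 262 CPM of Igkc. Spleen ST2+ libraries held at most 11.2, 24.0 and 44.0 CPM of these. Every marker but Ighm was above the spleen ST2+ range in mouse 3, and Ighm was below it (326 CPM against 717 to 883 CPM). In this library Xbp1 was 365, Creld2 93.6, Pdia4 305, Sdf2l1 81.4 and Hspa5 1099 CPM, each the lowest of the 3 colon ST2+ libraries. Creld2 and Pdia4 lay within the spleen ST2+ range there (64.0 to 97.2 and 205 to 319 CPM), and Xbp1 and Hspa5 lay above it.

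**Figure D4:**
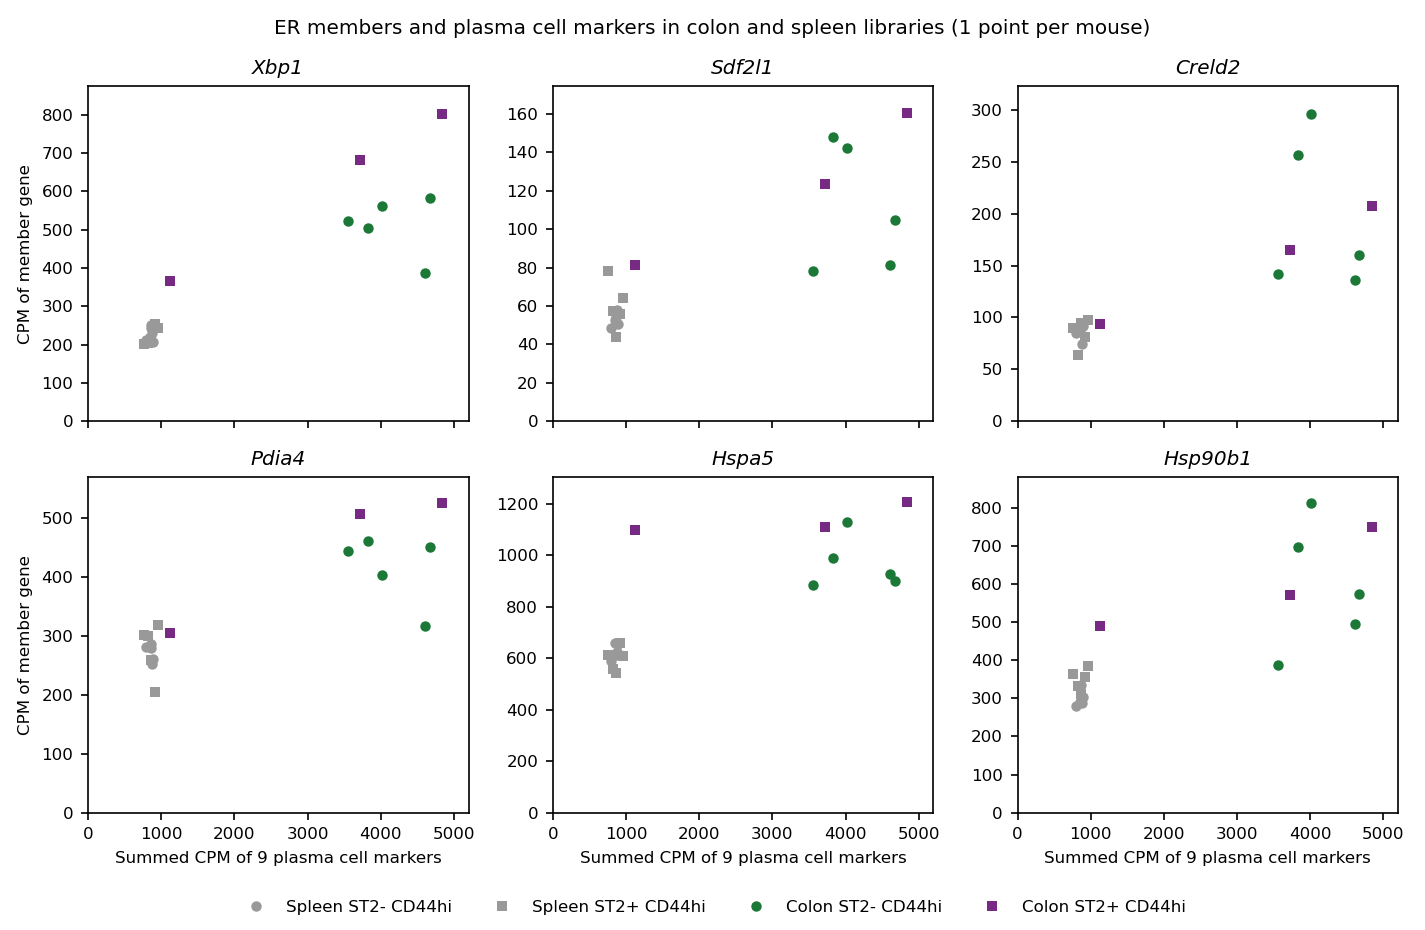
CPM of 6 ER and UPR members (y axis) against the summed CPM of 9 plasma cell markers (x axis) in colon (coloured) and spleen (grey) libraries, 1 point per mouse, with circles for ST2- and squares for ST2+ CD44hi Tregs. The colon ST2+ library at 1126 CPM of markers lies beside the spleen points for Creld2 and Pdia4 and beside the other colon points for Hspa5. Ighm makes up nearly all of the marker sum in spleen, while that library holds less Ighm and more of the other markers.

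The fit was repeated without the 9 libraries in which the plasma cell markers summed to over 2000 CPM, a limit chosen after the values were seen. That left mouse 3 as the single colon ST2+ library, assumed to vary like the other groups, and no colon ST2- library. The library of mouse 3 still held Jchain, Igha and Igkc above the spleen ST2+ range, so it was not free of plasma cell transcripts. Dnajb9, Hspa5, Ppp1r15a and, of the cytosolic genes, Dnajb4 then rose in colon ST2+ Tregs against spleen, where 5.38% of all genes were called in either direction. The log2 FC of Hspa5 was 0.90 (edgeR adjusted p = 0.00126), near its 0.93 with all 3 libraries. That of Xbp1 was 0.73 (edgeR adjusted p = 0.0665), from 1.47, and that of Creld2 was 0.15 (edgeR adjusted p = 0.924), from 0.86. With 1 library, a gene that misses the threshold is not shown to be equal. The same mouse 3 library held 3109 CPM of the 12 intestinal epithelium markers, against 286 and 886 CPM in mice 1 and 4. In colon ST2- libraries these summed to 73.6, 3796, 488, 113 and 252 CPM, with mouse 2 the highest, and without the 4 libraries over 1000 CPM of epithelial markers 11 of 25 ER and UPR genes rose in ST2- and 13 in ST2+ colon Tregs, where 7.15% and 5.5% of all genes were called in either direction. Myeloid markers summed to 1462, 1303 and 1477 CPM in colon ST2+ and 34.8 to 286 CPM in colon ST2- libraries, led by Lyz2. The 11 stromal markers, led by Dcn, summed to 443 to 1398 CPM in colon ST2+ and 61.6 to 1081 CPM in ST2- libraries, and the 6 B cell markers, led by Cd79b, to 75.3 to 391 and 124 to 209 CPM. The part of the myeloid, stromal and B cell markers in the ER values was not tested.

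Skin and colon were then compared directly, since the ER genes did not rise alike in both. In ST2- Tregs 11 of 22 heat shock genes were higher in skin and none lower, while of the 25 ER and UPR genes 3 were higher and 4 lower, with 6.85% of all genes higher and 8.72% lower. The 3 that were higher were Atf6, a call lost whichever mouse was left out, Ern1, lost without mouse 3, 4 or 5, and Ddit3, lost without mouse 4. In ST2+ Tregs 10 heat shock genes were higher, and 0 ER and UPR genes were higher and 4 lower, against 6.94% of all genes higher and 10.1% lower. Without the libraries high in plasma cell markers, which left 1 colon ST2+ library, 4 heat shock genes were higher (Dnajb1, Hsp90aa1, Hspa4 and Hsph1), Edem1 was higher and Pdia4 lower, and 6.09% of all genes were called. Sdf2l1, Creld2 and Pdia4 were lower in skin in both populations, the call of Sdf2l1 in ST2- Tregs being lost without mouse 4 and that of Creld2 in ST2+ Tregs without mouse 1, 4 or 5. Pdia4 had 221 ± 22.04 (SD, n = 5) CPM in skin against 416 ± 59.2 (SD, n = 5) CPM in colon ST2- Tregs (log2 FC -0.91, SE 0.15, edgeR adjusted p = 2.89e-06) and a log2 FC of -1.23 (SE 0.16) in ST2+ Tregs (edgeR adjusted p = 6.92e-08). Sdf2l1 stood at 48.5, 66.1, 46.5, 45.8 and 52.6 CPM in skin ST2- Tregs, overlapping its spleen range and below every colon library. Dnajc3 was lower in skin in ST2+ Tregs (log2 FC -0.92) and Dnajb11 in ST2- Tregs (log2 FC -0.70). St13, an HSP70 partner, was among the heat shock genes higher in skin in ST2+ Tregs (log2 FC 0.60, SE 0.22, edgeR adjusted p = 0.0483), but with the mouse as a replicate block its log2 FC of 0.55 was under the 1.5-fold limit, and the call was also lost with DESeq2, with RLE factors and without mouse 1, 2, 3 or 4. For Hspa5 no difference between skin and colon passed the test (log2 FC -0.03 and -0.16, SE 0.11 and 0.13). Plasma cell markers were at 179 to 378 CPM in skin ST2- libraries, with Mzb1 and Tnfrsf17 at 0, so they differed between these tissues as well.

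**Figure D5:**
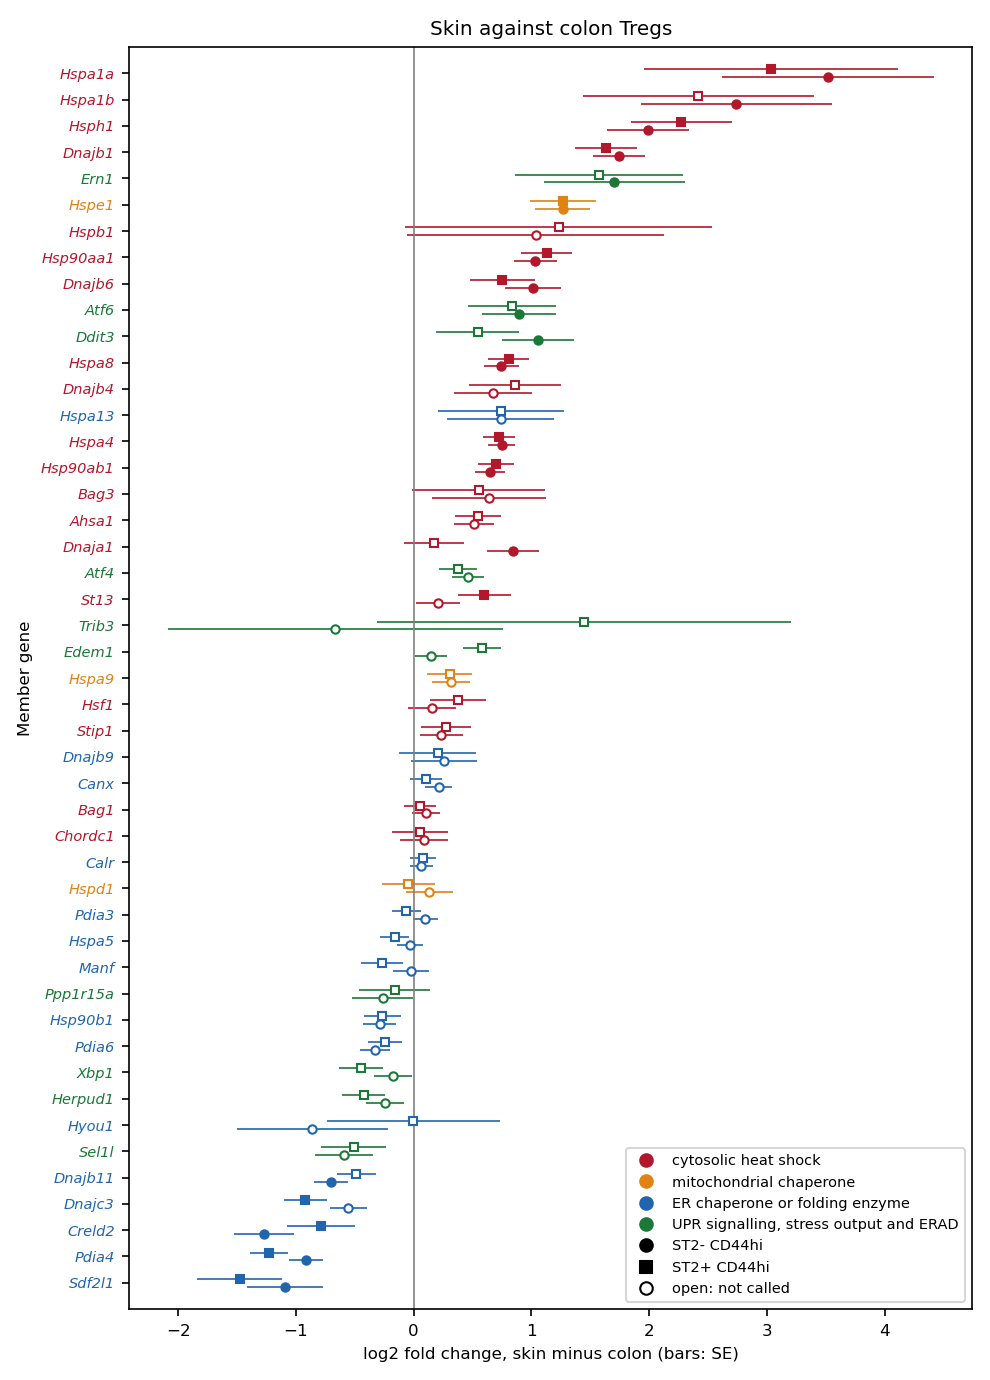
The log2 FC of each member, skin minus colon, with its SE, in ST2- (circles) and ST2+ CD44hi Tregs (squares), coloured by compartment and ordered by the mean of both, with filled symbols for DEGs. Cytosolic genes lie to the right, led by Hspa1a, and Sdf2l1, Pdia4, Creld2, Dnajc3 and Dnajb11 lie at the far left.

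In skin the ER members were compared with spleen by role. Against spleen 4 of 15 ER chaperones rose in ST2- and 3 in ST2+ Tregs, where 17.3% and 14.9% of all genes rose, and Dnajb9, Hspa13 and Hspa5 did so in both, the Hspa13 call in ST2+ Tregs being lost without mouse 3 or 5. Hspa5 stood at 834, 1049, 897, 1048 and 916 CPM in skin ST2- Tregs (log2 FC 0.59, SE 0.11, edgeR adjusted p = 1.72e-05), above every spleen library, and fell under the 1.5-fold limit without mouse 2 or mouse 4. The UPR sensors Atf6 and Ern1 rose as well. Atf6 stood at 354, 238.9, 217, 234 and 234 CPM in skin and 92.9, 43.6, 34.0, 39.3 and 43.6 CPM in spleen ST2- Tregs (log2 FC 2.33, SE 0.33, edgeR adjusted p = 5.55e-08). Ern1 stood at 55.5, 68.2, 173, 207 and 211 and 0.37, 2.57, 1.76, 4.23 and 0.72 CPM (log2 FC 6.19, SE 0.76, edgeR adjusted p = 1.46e-09). No skin library of these genes came down to the spleen range. Xbp1 had 452 ± 45.9 (SD, n = 5) CPM in skin ST2- Tregs (log2 FC 0.98, SE 0.16 against spleen, edgeR adjusted p = 1.80e-06), and Edem1, which clears misfolded glycoproteins, a log2 FC of 1.04 (SE 0.14).

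A few stress outputs rose in all 4 digested tissues. In lungs 5 of 47 members were DEGs against spleen in ST2- and 6 in ST2+ Tregs, where 4.12% and 4.90% of all genes were called. In VAT there were 4 and 10, against 5.96% and 11.3%. Ppp1r15a, which encodes GADD34 and restores translation after stress, was a DEG in lungs, VAT, colon and skin in both populations. In ST2- Tregs it stood at 103, 253, 125, 240.1 and 83.2 CPM in spleen, 916, 726, 632, 789 and 646 CPM in lungs and 442, 725, 674, 709 and 649 CPM in VAT. In colon it stood at 767, 956, 893, 774 and 838 CPM and in skin at 689, 658, 669, 723 and 782 CPM. Each digested library was above each spleen library, and among the digested tissues skin overlapped the others while colon lay above all VAT libraries. The log2 FCs against spleen were 2.21 (SE 0.28), 1.99 (SE 0.27), 2.39 (SE 0.28) and 2.13 (SE 0.28) in ST2- Tregs of the lungs, the VAT, the colon and the skin, with edgeR adjusted p = 1.68e-08, 1.86e-07, 1.07e-09 and 5.76e-09. In blood, which was not digested, it had 271 ± 127 (SD, n = 5) CPM (log2 FC 0.75, SE 0.27, edgeR adjusted p = 0.101).

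Atf4, the translation-controlled regulator of the integrated stress response, rose in the same tissues with smaller steps, except that in lungs ST2+ Tregs its difference was under the fold of 1.5 (log2 FC 0.50, SE 0.14, edgeR adjusted p = 0.0185). It had 159.7 ± 26.3 (SD, n = 5) CPM in spleen, 301 ± 36.4 (SD, n = 5) in lungs, 310.3 ± 73.8 (SD, n = 5) in VAT, 318 ± 56.2 (SD, n = 5) in colon and 438 ± 30.3 (SD, n = 5) CPM in skin ST2- Tregs. Against spleen all 4 differences passed the test, with log2 FCs of 0.91 to 1.46, and skin was higher than lungs in ST2+ Tregs (log2 FC 0.70, SE 0.14, edgeR adjusted p = 0.000122). Dnajb9, an ER co-chaperone that restrains IRE1, stood at 9.997, 6.85, 12.3, 10.99 and 5.76 CPM in spleen and 24.0, 23.2, 27.1, 14.9 and 20.1 CPM in blood ST2- Tregs. It was higher in blood (log2 FC 1.25, SE 0.30, edgeR adjusted p = 0.00528), lungs (1.97), VAT (2.19), colon (2.50) and skin (2.76), so that spleen was the low tissue for this gene. The blood call was lost without mouse 5 in ST2- Tregs and whichever mouse was left out in ST2+ Tregs, and that of lungs in ST2+ Tregs without mouse 1, 3, 4 or 5.

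Ern1 and the cytosolic HSP40 gene Dnajb4 rose in lungs and colon in both populations. Ern1 had 12.6 ± 6.96 (SD, n = 5) CPM in lungs, 27.5 ± 24.2 (SD, n = 5) in VAT and 43.8 ± 13.7 (SD, n = 5) CPM in colon ST2- Tregs, with log2 FCs against spleen of 2.71 (SE 0.71), 3.80 (SE 0.72) and 4.49 (SE 0.73) (edgeR adjusted p = 0.0109, 0.000122 and 4.75e-06). Ern1 rested on few counts in spleen (1 to 10 a library), and its call in lungs was lost without mouse 3 or mouse 5. Dnajb4 stood at 68.7, 43.5, 84.3, 104 and 83.6 CPM in lungs and 24.8, 33.4, 29.5, 38.0 and 21.96 CPM in spleen ST2- Tregs (log2 FC 1.38, SE 0.34, edgeR adjusted p = 0.00574), a call lost without mouse 3 or mouse 4. In ST2+ Tregs the lungs calls were lost without mouse 4 or 5 for Ern1 and without mouse 3, 4 or 5 for Dnajb4, and the colon call of Dnajb4 without mouse 3. Ddit3, the proapoptotic factor CHOP, went another way. It had 65.0 ± 10.9 (SD, n = 5) CPM in spleen, 29.1 ± 18.7 (SD, n = 5) in lungs and 35.2 ± 13.0 (SD, n = 5) CPM in VAT ST2+ Tregs, and it fell in lungs (log2 FC -1.15, SE 0.31, edgeR adjusted p = 0.0118) and VAT (log2 FC -0.88, SE 0.30, edgeR adjusted p = 0.044). Both tissues overlapped spleen, the lungs call was lost without mouse 2, 3 or 4 and the VAT call without mouse 2, 4 or 5. In skin ST2- Tregs Ddit3 had 106 ± 19.8 (SD, n = 5) CPM (log2 FC 0.75, SE 0.30, edgeR adjusted p = 0.0448), a call lost when mouse 1, 2, 4 or 5 was left out. Trib3, a target of CHOP, stayed at or below 36.3 CPM in every library and was a DEG in no comparison.

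Genes of the same pathways outside the module were counted too. Of 59 tested of 61 other ER stress and secretory genes, 10 rose in colon ST2- and 9 in ST2+ Tregs and none fell (median log2 FC 0.29 and 0.27), where 8.76% and 8.55% of all genes rose. In skin 12 rose and 6 fell in ST2- and 9 rose and 6 fell in ST2+ Tregs (median 0.12 and 0.11), shares near the 17.3% and 14.9% of all genes that rose and the 13.5% and 14.2% that fell. Ero1l, the oxidase of ER disulphide formation (log2 FC 2.98, SE 0.22, edgeR adjusted p = 4.48e-17), Serp1 (log2 FC 0.81, SE 0.11, edgeR adjusted p = 2.68e-08) and Ssr3, of the translocon (log2 FC 1.08, SE 0.16, edgeR adjusted p = 2.24e-07), had the smallest p among those that rose in skin ST2- Tregs. Edem2 (log2 FC -1.56, SE 0.25, edgeR adjusted p = 1.33e-06), Os9, an ERAD lectin (log2 FC -0.65, SE 0.14, edgeR adjusted p = 0.000196), and Ssr2 (log2 FC -0.75, SE 0.18, edgeR adjusted p = 0.000985) had the smallest among those that fell. Of 29 tested of 33 ATF4 targets, 3 rose in lungs, 3 in VAT and 5 in colon ST2- Tregs, 9 rose in skin, and 5 fell in skin, where 3.45%, 4.58%, 8.76% and 17.3% of all genes rose and 13.5% fell in skin. Slc3a2, an amino acid transporter chain, rose in skin (log2 FC 2.07, SE 0.14, edgeR adjusted p = 4.23e-19), as did Cebpb and Atf3, which this list shares with the immediate early genes. Aldh18a1 (log2 FC -1.47, SE 0.30, edgeR adjusted p = 9.35e-05), Wars (log2 FC -1.24, SE 0.26, edgeR adjusted p = 0.000127) and Psph, a serine synthesis enzyme (log2 FC -1.04, SE 0.25, edgeR adjusted p = 0.000771), fell.

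The CD44lo CD62L+ Tregs gave a comparison of lungs and spleen within central Tregs. 4 of 47 members rose in lungs and none fell, where 2.31% of all genes rose (3.26% called). They were Ppp1r15a (log2 FC 1.75, SE 0.27, edgeR adjusted p = 4.09e-06), Dnajb9 (log2 FC 1.85, SE 0.29, edgeR adjusted p = 7.04e-06), Atf4 (log2 FC 0.73, SE 0.14, edgeR adjusted p = 0.000247) and Dnajb4 (log2 FC 1.19, SE 0.34, edgeR adjusted p = 0.0279). Ppp1r15a stood at 743, 976, 815, 985 and 715 CPM in lungs and 138, 348, 149.7, 469.5 and 157 CPM in spleen, without overlap. The immediate early genes rose with them, 18 of 32, and their part was not tested. The Dnajb4 call was lost without mouse 1, 2, 3 or 4.

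Few members differed with activation state within a tissue. Between CD44lo CD62L+ and ST2- CD44hi Tregs, Bag3 was lower in CD44lo CD62L+ cells of spleen, at 6.24, 6.97, 13.3, 1.60 and 5.62 against 37.0, 24.8, 25.6, 12.3 and 21.6 CPM (log2 FC -1.82, SE 0.52, edgeR adjusted p = 0.0207), and Ern1 in those of lungs, at 5.61, 1.049, 0.481, 2.28 and 1.63 against 1.33, 19.7, 15.5, 11.51 and 15.2 CPM (log2 FC -2.44, SE 0.70, edgeR adjusted p = 0.0216). These were 1 of 47 members in each tissue, where 4.97% and 5.56% of all genes were called. The ranges overlapped for both genes. The Bag3 call was lost without mouse 1, 2, 4 or 5 and that of Ern1 without mouse 2, 3, 4 or 5.

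Between ST2+ and ST2- CD44hi Tregs of the same tissue a member passed the test in blood alone. In spleen, lungs, VAT, colon and skin 0 of 47 members were DEGs by edgeR, with 2, 6, 7, 2 and 0 at an unadjusted p under 0.05, where 0.349%, 0.751%, 3.13%, 0.0682% and 0.227% of all genes were called. In blood 2 of 47 fell in ST2+ Tregs, where 1.72% of all genes fell (4.06% called). Dnajb4 stood at 42.7, 10.6, 13.4 and 16.5 CPM in ST2+ (mice 2 to 5) and 66.2, 100.5, 38.2, 75.4 and 40.2 CPM in ST2- blood Tregs (log2 FC -1.63, SE 0.38, edgeR adjusted p = 0.00472), with overlap. Hspa9, the mitochondrial HSP70, stood at 184, 75.3, 198 and 174 and 273, 229, 269, 218 and 199.7 CPM, lower in every ST2+ library (log2 FC -0.59, SE 0.18, edgeR adjusted p = 0.036). The Dnajb4 call was lost without mouse 3 or 4 and that of Hspa9 without mouse 1, 2, 3 or 5 and with the sorted cells as a covariate. With voom neither passed (adjusted p = 0.126 and 0.271). A variation of the ST2 difference between tissues passed edgeR's interaction test for 0 of 47 members, where 1.39% of all genes passed. The smallest adjusted p was 0.0687 for Dnajb4, and 5 members had an unadjusted p under 0.05, namely Dnajb4, Hspb1, Hspa9, Atf6 and Atf4.

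In blood, the other undigested tissue, few members differed from spleen. 2 of 47 members were DEGs against spleen in ST2- and 2 in ST2+ Tregs, against 3.57% and 4.21% of all genes. Besides Dnajb9, which was higher in blood in both, they were Dnajb4 in ST2- Tregs (higher, log2 FC 1.12, SE 0.34, edgeR adjusted p = 0.0446) and Hspa9 in ST2+ Tregs (lower, log2 FC -0.61, SE 0.18, edgeR adjusted p = 0.0272). The Dnajb4 call was lost whichever mouse was left out and that of Hspa9 without mouse 1, 3 or 5. Hspa1a was at 0 counts in 4 of 5 ST2- and 3 of 4 ST2+ blood libraries, which allows up to 3 counts in each. The total of the 22 heat shock genes was 3163 CPM in blood, 3231 in spleen, 3649.7 in colon and 6519 CPM in skin ST2- Tregs, as means of 5 libraries. That of the 25 ER and UPR genes was 4673, 4735, 7764 and 7274 CPM.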

How the data were processed

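Single-end RNA-seq reads of 58 bases from 70 libraries of sorted Tregs were trimmed, aligned with STAR to GRCm38 and counted with HTSeq 0.4.1 on Ensembl release 91 by the authors, who deposited raw counts per gene with no normalization. Whether counting used strand was not given in the sources used here. Libraries with 1000000 counts or fewer were left out, and the 67 kept held 1304560 to 2759926 counts. The libraries of a group came from separate mice, and no 2 libraries of the same group held identical values.

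Counts were tested with edgeR 4.0.16 (glmQLFit and glmQLFTest, TMM factors) in R 4.3.3, with 1 term for each of 14 groups, over 13191 protein coding genes (1 CPM or more in 10% of the libraries), and with Benjamini-Hochberg adjustment over all of them. The call rule was an adjusted p of at most 0.05 and a fold change of at least 1.5. SEs are the log2 FC divided by the square root of F. Tissues were compared with spleen and skin with lungs, VAT and colon within each ST2 population, ST2+ with ST2- within each tissue, and CD44lo CD62L+ with ST2- CD44hi Tregs in spleen and lungs. On simulated counts for skin against spleen ST2- Tregs over 13191 genes, 28.2% of genes changed 2-fold and 51.5% of those changed 4-fold were recovered, with 2 false calls, and for blood ST2+ against ST2- Tregs over the same number of genes 17.9% and 50.0%, with 0. For skin, 103 and 97 genes drawn from all tested were changed and the rest were not, while 30.9% were called in the data. The shares recovered therefore do not give the power for the members. Gene models for lengths and symbols came from GENCODE release M21, and promoters from RefSeq.

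Each mouse gave all of its groups, so replicate numbers pair libraries of 1 animal. Over 27 same-mouse pairs and 6515 genes, deviations from the group means had a mean correlation of 0.116 (lowest -0.00224), with 14 above 0.1. The mouse was not a term of the test and was added as a replicate block among the alternatives. The others were DESeq2 1.42.0, voom with quality weights from limma 3.58.1, RLE factors, no low-count filter, a filter of 1 CPM in 50% of libraries, all 70 libraries, a covariate for the cells sorted and each mouse left out. Libraries high in epithelial or in plasma cell markers were left out in fits added after seeing the data. The members and all gene lists were chosen with earlier results of these data known. Genes named were 22 members listed by symbol, those outside that list among the 4 heat shock and the 4 ER and UPR members with the largest mean difference of those called alike in skin in both populations, members called between ST2+ and ST2- Tregs, and, from each other list, the 3 called genes of smallest adjusted p that rose, and the 3 that fell, in skin ST2- Tregs, of which 1 is not reported here. Other genes, such as Trib3, Pdia4 and St13, were named after their values were seen.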

Additional observations from a re-analysis of the deposited data

Results flagged for a closer look

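Of 403 gene or class levels tested within groups of 4 or 5 libraries, 32 had 1 library farther from the rest than Dixon's 95% limit, where chance gives about 1 in 20. All values here are CPM unless stated, with the group median after each.

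Among the inducible HSP70 genes, Hspa1a was highest in mouse 3 of blood ST2- (1.01, median 0), mouse 4 of blood ST2+ (12.5, median 0), mouse 4 of spleen ST2+ (17.1, median 1.98) and mouse 5 of lungs CD44lo CD62L+ Tregs (3.67, median 0.569). Hspa1b was highest in the same libraries of blood ST2- (3.02, median 0) and blood ST2+ (14.4, median 0.677) and in mouse 4 of skin ST2+ Tregs (637, median 418). Most of these levels rest on few counts, that of skin excepted.

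Of the other cytosolic and mitochondrial members, Hsph1 was highest in mouse 2 of VAT ST2+ (280.0, median 89.5), the library that also held the most Hspa1a and Hspa1b of its group. Hspb1 was highest in mouse 3 of VAT ST2- (6.4, median 0.558), mouse 5 of VAT ST2+ (0.694, median 0) and mouse 2 of spleen CD44lo CD62L+ Tregs (2.05, median 0). Hsf1 was high in mouse 1 of blood ST2- (288, median 166) and mouse 5 of colon ST2- (224, median 166) and low in mouse 3 of VAT ST2- (86.7, median 180.5) and mouse 2 of skin ST2- Tregs (142, median 207). Hspe1 was low in mouse 1 of skin ST2+ (44.6, median 68.5) and high in mouse 4 of lungs CD44lo CD62L+ Tregs (59.2, median 33.6). Hspa9 was low in mouse 4 of VAT ST2- Tregs (181, median 291), as was the level of the mitochondrial chaperones together (-0.509 on the centred log2 CPM scale, median 0.14).

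Among ER chaperones, Hsp90b1 was high in mouse 5 of VAT ST2+ (481, median 354), a library with 4266 CPM of plasma cell markers against a group median of 378. Calr was high in mouse 2 of skin ST2+ (511, median 434), Sdf2l1 in mouse 2 of lungs ST2+ (104, median 64.3) and Manf in mouse 4 of lungs CD44lo CD62L+ Tregs (120.0, median 75.0), where the ER chaperone level of mouse 1 was low (-0.526 centred log2 CPM, median -0.15).

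Among UPR genes, Ddit3 was high in mouse 5 of blood ST2+ (44.0, median 28.6) and mouse 3 of VAT ST2+ (58.4, median 29.8), Ern1 in mouse 2 of VAT ST2- (70.4, median 19.3), and Atf6 in mouse 1 of spleen ST2- (92.9, median 43.6) and of skin ST2- Tregs (354, median 234). Ppp1r15a was low in mouse 1 of VAT ST2- Tregs (442, median 674). The level of the UPR class was high in mouse 3 of blood ST2- (-0.265 centred log2 CPM, median -0.77) and low in mouse 2 of VAT ST2+ Tregs (-0.294, median 0.18).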

How the results depend on the processing

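Of 222 calls of a member in a comparison, 152 held under every alternative other than leaving out the libraries high in epithelial or in plasma cell markers, and in these the sign of the difference held for all 222. By setting, 217 held with DESeq2, 213 with voom, 218 with RLE factors, 205 with no low-count filter, 216 of 216 with the 50% filter, 188 with all 70 libraries and 217 with sorted cells as a covariate. With the mouse as a replicate block 220 held, the exceptions being Hspa1b in VAT against spleen (log2 FC 2.36, adjusted p = 0.0504) and St13 in skin against colon (log2 FC 0.55), both in ST2+ Tregs. The block changed no other call. Without mouse 1, 2, 3, 4 or 5, 198, 196, 188, 179 and 187 held. Without the libraries high in epithelial markers 203 held, and without those high in plasma cell markers 159 of 187. Of the heat shock pairs called against spleen, 28 in skin became 27 to 29 without 1 mouse, 3 in lungs 0 to 3, 4 in VAT 2 to 6, 5 in colon 2 to 5 and 2 in blood 0 to 1. Of the ER and UPR pairs, 21 in skin became 20 to 21, 27 in colon 19 to 27, 8 in lungs 5 to 8, 10 in VAT 8 to 11 and 2 in blood 1 to 2. Against lungs, VAT and colon, 67 heat shock pairs in skin became 57 to 66 and 37 ER and UPR pairs 31 to 36. The 2 calls between ST2+ and ST2- Tregs became 1 to 3 and the 2 between CD44lo CD62L+ and CD44hi Tregs 0 to 2. For blood the 2 heat shock calls became 0 with voom and 1 with no filter, all 70 libraries, the covariate, or without the libraries high in epithelial markers, and the 2 ER and UPR calls became 1 with no filter, the covariate or without the libraries high in plasma cell markers, and 4 with all 70 libraries. Heat shock calls in lungs were 1 with all 70 libraries and those in colon 11 with voom and 3 without the libraries high in epithelial markers, and with voom neither of the 2 ST2 calls held and 1 other member was called. The cause was not tested. The last 2 sets of libraries were chosen after seeing the data. Without the libraries high in plasma cell markers the log2 FC of Edem1 in colon against spleen ST2+ Tregs reversed, to -0.24 (edgeR adjusted p = 0.643) from 0.66, on 1 colon library. The median log2 FC of all genes moved by over 0.1 in a few fits, most in skin against VAT ST2+ Tregs with voom (0.16).

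Tissue, digestion, magnetic enrichment and the other cells in a sort cannot be told apart in these comparisons, and the libraries kept came from the same 5 mice in all groups but blood ST2+ (mice 2 to 5) and colon ST2+ (mice 1, 3 and 4). Genes with few counts, such as Hspa1a and Ern1 in spleen, have fold changes that depend on the fit, and Hspb1 had no counts in blood and lungs ST2- Tregs.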
